A study of Mus musculus with 16 samples.

Results

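The acute-phase proteins are plasma and tissue proteins whose transcripts the liver raises after injury or infection, chiefly under interleukin-6 signalling through STAT3 and interleukin-1 signalling through NF-kB and C/EBP factors. The metallothioneins are small cysteine-rich proteins that bind zinc and copper, and their genes respond to metals through the factor MTF1, to glucocorticoids, to oxidative stress and, in liver, to interleukin-6. The 10 genes described here are Saa1, Saa2 and Saa3 (serum amyloid A), Orm1 and Orm2 (orosomucoids, acid glycoproteins of plasma), Hp (haptoglobin, which binds free haemoglobin), Hpx (hemopexin, which binds haem), Itih4 (an inter-alpha-trypsin inhibitor heavy chain) and the metallothioneins Mt1 and Mt2. They were taken by name out of 25054 gene entries, and each symbol had 1 entry. No measured value entered the choice, but earlier results of these data were known.

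RNA of newborn C57BL/6J mouse pups was sequenced from live wild-type (WT), live heterozygous (Man1a2+/-), dead heterozygous and dead null (Man1a2-/-) pups, all in a design built on a deletion of exon 2 of Man1a2, a mannosidase that trims N-linked glycans. The heterozygous dams and sires had received the antioxidant N-acetylcysteine (NAC, up to 1 g/kg) or placebo from before breeding until delivery, and 1 library was made for each pup group, treatment and labelled tissue (lung or liver), 16 in all, from RNA pooled over 3 experiments, or 2 for dead heterozygous pups. Pups were watched for 24 h with a check every 8 h, dead pups were collected when found and survivors at the end, so death and age at collection cannot be told apart. All null pups had died and all WT pups in these libraries were alive, so dead and live pups of 1 genotype can be compared only among heterozygous pups. Expression is given as counts per 1000000 counts (CPM) after TMM scaling, and libraries held from 7236865 to 16107749 counts.

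The labelled tissue went against the marker genes in 8 of the 16 libraries. Liver-content libraries, with at least 50000 CPM of albumin (Alb) before scaling, numbered 8, and the hepatocyte markers summed to 117980 to 200770 CPM in them against 19.4 to 182 CPM in the 7 lung-content libraries, which had at least 1000 CPM of the surfactant gene Sftpc and under 1000 CPM of Alb. The lung epithelium markers summed to 10622 to 17381 CPM in lung-content and to 58.7 to 89.1 CPM in liver-content libraries. The dead null placebo library labelled lung passed neither rule, with 9280 CPM of Alb and 5553 CPM of Sftpc, and entered no test. The dead null NAC library labelled liver was just inside the liver rule at 51003 CPM of Alb, and its partner labelled lung was also liver-content. Comparisons below were made within these contents, with pup group and treatment from the labels. Whether these labels are right was not tested, although the tissue labels of 8 libraries went against the markers. In dead null pups, exchanged tissue labels and exchanged treatment labels cannot be told apart. By the labels, the liver-content set held 5 NAC and 3 placebo libraries, or 4 live and 4 dead ones. The lung-content set held 3 NAC and 4 placebo libraries, or 4 live and 3 dead ones. Null pups entered the liver-content set only with NAC and the lung-content set only with placebo. Man1a2, counted over the whole gene and therefore no check of the exon 2 deletion, ranged from 22.6 to 121 CPM before scaling, and 24.5 to 70.0 CPM of these were in null libraries. Ribosomal Rn45s took 0.85% to 26.19% of the counts of a library.

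First, the level of each gene in the 2 contents was examined. The plasma protein genes Hp, Hpx and Itih4 were abundant in every liver-content library, Mt1 and Mt2 came next, and Saa1, Saa2 and Orm2 were nearly silent. Saa1 had 2 to 6 counts per liver-content library and 0 to 2 per lung-content library, Saa2 had 0 to 2 in either, and Orm2 had 0 or 1 in liver-content and 0 to 5 in lung-content libraries. A count of 3 or less was treated as the floor, and only 3 of the 8 liver-content libraries exceeded it for Saa1 and 1 lung-content library, that of dead heterozygous placebo pups, for Orm2. These 3 genes did not pass the mean of 1 CPM required for testing, which left 7 of the 10 members, and no fold is given for them.

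The plasma protein genes Hp, Hpx and Itih4 were higher in every liver-content library than in any lung-content library. Hp had from 2921 to 4212 CPM (median 3701) in the 8 liver-content libraries and from 237 to 323 CPM (median 264) in the 7 lung-content libraries. The groups did not overlap, and Hp was the only member to exceed 200 CPM in every lung-content library. How many of all genes separated the contents without overlap was not counted. Hpx had from 1353 to 3365 CPM (median 2278) in liver-content and 0.689 to 5.12 CPM (median 1.95) in lung-content libraries, and Itih4 1089 to 1877 CPM (median 1448) against 3.38 to 9.41 CPM (median 7.01). In edgeR's quasi-likelihood test with Benjamini-Hochberg adjustment, where a gene was called at an adjusted p under 0.05 and an absolute log2 fold change of at least 1, liver-content exceeded lung-content libraries by 3.74 ± 0.17 (log2, SE) for Hp and 7.91 ± 0.29 for Itih4, and 1098-fold (SE of 0.42 on the log2 scale) for Hpx. Their adjusted p-values were 1.41e-11, 2.16e-12 and 7.91e-12 in this order.

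Mt1 was 533 to 1879 CPM (median 963) in liver-content and 28.1 to 125 CPM (median 48.95) in lung-content libraries, a log2 difference of 4.30 ± 0.32 (adjusted p = 6.53e-09, edgeR). Mt2 had 331 to 1242 CPM (median 634) and 14.6 to 75.8 CPM (median 18.5), a log2 difference of 4.73 ± 0.39 (adjusted p = 1.83e-08, edgeR). Orm1, the only expressed orosomucoid, had 1.67 to 11.1 CPM in liver-content and 0.347 to 2.20 CPM in lung-content libraries, 1.90 ± 0.40 higher on the log2 scale (adjusted p = 4.62e-04, edgeR), although the ranges overlapped. Saa3, the serum amyloid that macrophages and epithelia also make, stood apart from the others. Its 0.477 to 10.5 CPM (median 3.17) in liver-content and 1.73 to 17.0 CPM (median 3.19) in lung-content libraries overlapped throughout, with a log2 difference of -0.82 ± 0.52 that did not pass (adjusted p = 0.161, edgeR). When only library size was used for scaling, the median of all genes moved to -0.56, and Saa3 was then called lower in liver-content at -1.51 (adjusted p = 0.0140, edgeR). In all, 6 of 7 tested members were called, all 6 higher in liver-content libraries, against 50.1% of all 14078 genes called in either direction and 26.4% called higher in liver-content.

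**Figure D1:**
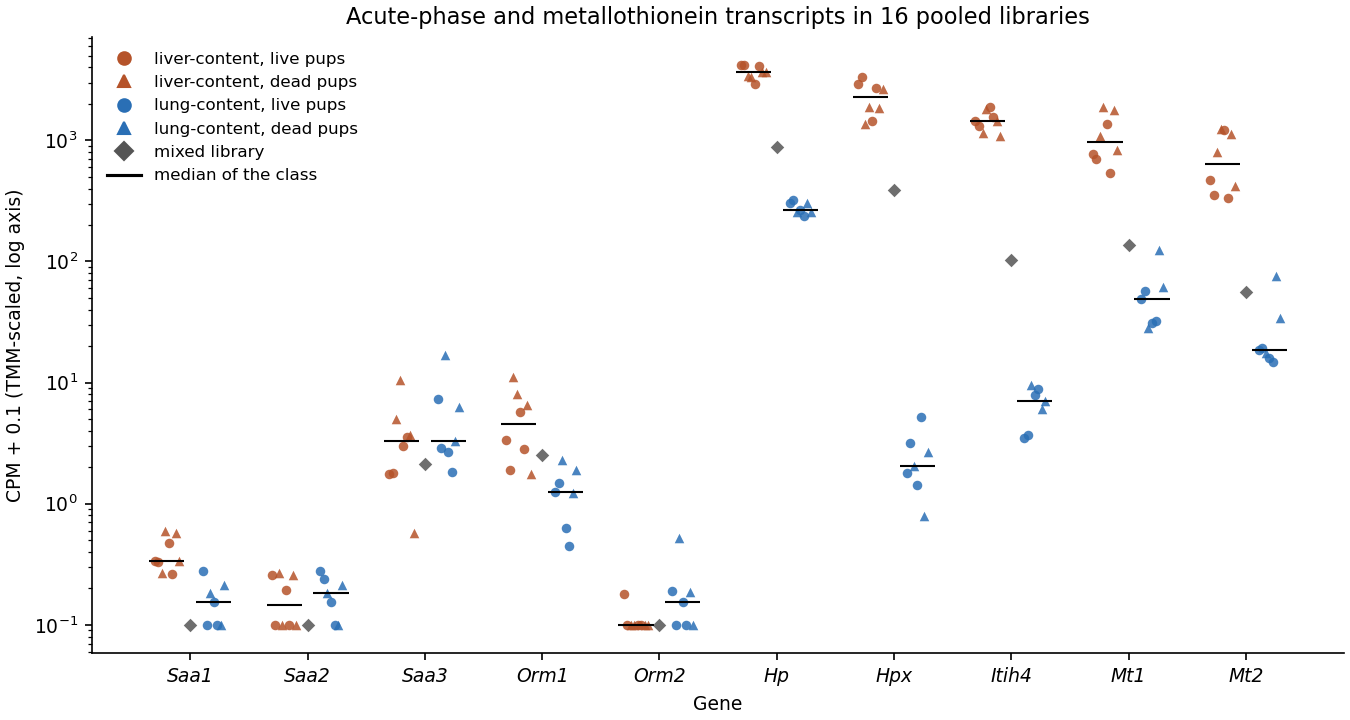
CPM after TMM scaling plus 0.1 (log axis) of the 10 genes in the 16 pooled libraries, coloured by marker content, with circles for live and triangles for dead pups, a diamond for the mixed library and a bar at the median of each content. Hp, Hpx, Itih4, Mt1 and Mt2 lie apart in the 2 contents, Saa3 overlaps throughout, and Saa1, Saa2 and Orm2 lie near the bottom of the axis.

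The mixed library lay between the contents for Hp (888 CPM), Hpx (392 CPM), Itih4 (104 CPM) and Mt1 (136 CPM), and its 55.4 CPM of Mt2 was within the lung-content range. Per kilobase of the principal transcript, the liver-content medians placed Hp first at 2752 CPM per kb, then Mt1 at 1755, Hpx at 1519, Mt2 at 1241 and Itih4 at 410 CPM per kb. The liver-content ranges of Mt1 (972 to 3422 CPM per kb) and Hpx (903 to 2245 CPM per kb) overlapped those of their neighbours in this order, while that of Itih4 (308 to 532 CPM per kb) lay below all the others.

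Traces of liver RNA in lung-content libraries were next set beside the member counts. The highest ratio of each member to Alb in any liver-content library was multiplied by the Alb count of each lung-content library, which gives the count that liver RNA of that kind would bring with its Alb. Hp counts, 2285 to 4979 per lung-content library, were 38.1 to 534 times this amount, Mt1 counts 22.1 to 267 times and Mt2 counts 15.0 to 245 times. Orm1, with only 4 to 26 counts, was 34.3 to 2837 times above it. Itih4 exceeded it by 1.69 to 66.7 times, and Hpx, with 8 to 59 counts, lay from 0.479 to 5.62 times this amount, at or below it in some libraries and above it in others. Haptoglobin is also made by developing neutrophils, whose part in these counts was not tested, and the neutrophil markers summed to 115 to 286 CPM in lung-content and 2682 to 5176 CPM in liver-content libraries.

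**Figure D2:**
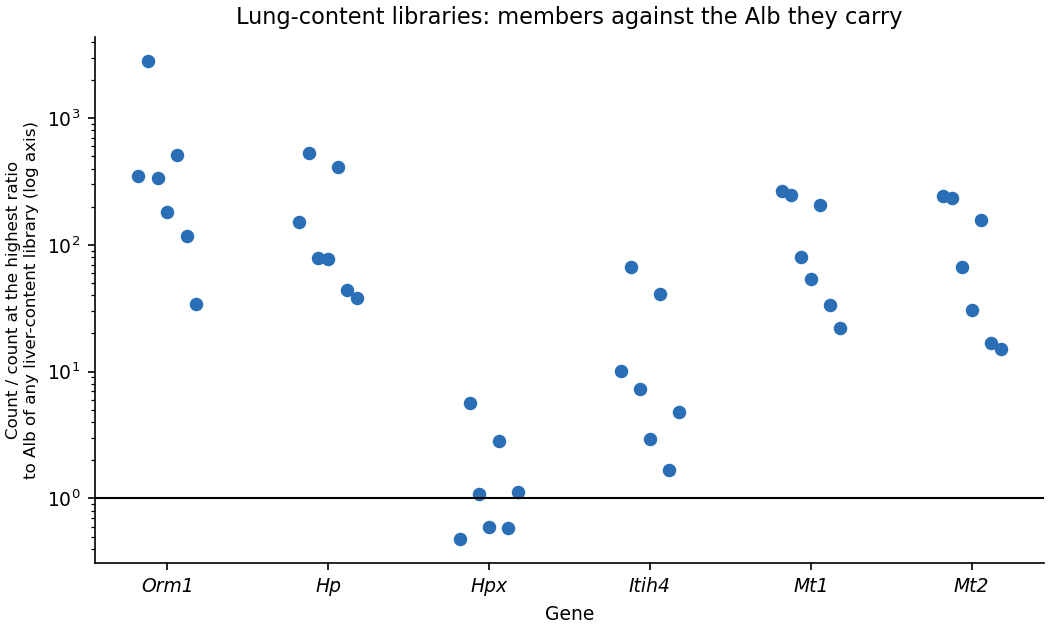
Counts of 6 members in each of the 7 lung-content libraries, divided by the count expected from the library's Alb at the highest member to Alb ratio seen in a liver-content library (log axis, line at 1). Hp, Mt1, Mt2 and Orm1 lie above 10 in every library, and Hpx lies on both sides of 1.

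By the labelled tissues, each NAC library was also set against the placebo library of the same pup group and label, with 1 library on each side and no test. In these 8 pairs, Hp, Hpx, Itih4, Mt1 and Mt2 moved to the side of Alb in 8 of 8, Orm1 in 7 and Saa3 in 4. Alb thus moved with these label-based differences, and they are not described further.

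The genes include 3 clusters of neighbours in the mouse genome (GRCm38). Saa3, Saa1 and Saa2 lie on chromosome 7, at 46711998 to 46715700, 46740497 to 46742980 and 46751790 to 46754313, and Hpx lies elsewhere on the same chromosome at 105591613 to 105600137. Orm1 and Orm2 are on chromosome 4 at 63344560 to 63348163 and 63362449 to 63365878, with 93% of the 100-base windows of their transcripts unique to one of them. Itih4 is on chromosome 14 at 30886476 to 30902353 and Hp on chromosome 8 at 109575128 to 109579172. Mt2 (94172664 to 94173568) and Mt1 (94179082 to 94180327) are 5514 bases apart on chromosome 8, on the plus strand. Part of the Mt2 exons overlaps Gm45774 on the other strand, and 72.6% of its 100-base windows were unique. Whether counting used the strand is not given in the sources used here, so reads of that stretch cannot be assigned with certainty.

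Promoter sequence was available in RefSeq tables (GRCm38.p6) for 8 of the 10 members. Those of the metallothioneins are shown because Mt1 and Mt2 varied together across the libraries, and those of Itih4 and Hpx because these genes differed most between the contents. Each is the 250 bases before the RefSeq start, 5′ to 3′ on the gene's strand, with matches in capitals. Mt1 is chr8:94178839-94179088 (plus strand), Mt2 chr8:94172368-94172617 (plus), Itih4 chr14:30886226-30886475 (plus) and Hpx chr7:105600117-105600366 (minus).
Mt1: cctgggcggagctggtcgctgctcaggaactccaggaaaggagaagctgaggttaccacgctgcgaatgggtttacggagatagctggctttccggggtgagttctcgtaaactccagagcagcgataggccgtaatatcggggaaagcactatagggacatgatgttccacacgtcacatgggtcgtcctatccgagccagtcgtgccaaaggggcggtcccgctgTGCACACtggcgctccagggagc
Mt2: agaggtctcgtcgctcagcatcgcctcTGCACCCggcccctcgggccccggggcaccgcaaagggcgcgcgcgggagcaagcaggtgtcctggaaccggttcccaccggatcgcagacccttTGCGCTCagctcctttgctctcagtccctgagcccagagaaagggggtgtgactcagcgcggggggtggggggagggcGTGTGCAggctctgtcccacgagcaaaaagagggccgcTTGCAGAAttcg
Itih4: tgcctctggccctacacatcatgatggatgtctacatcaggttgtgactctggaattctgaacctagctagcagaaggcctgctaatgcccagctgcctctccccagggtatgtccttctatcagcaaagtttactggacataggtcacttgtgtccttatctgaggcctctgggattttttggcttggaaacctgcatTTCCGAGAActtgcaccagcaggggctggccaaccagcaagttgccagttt
Hpx: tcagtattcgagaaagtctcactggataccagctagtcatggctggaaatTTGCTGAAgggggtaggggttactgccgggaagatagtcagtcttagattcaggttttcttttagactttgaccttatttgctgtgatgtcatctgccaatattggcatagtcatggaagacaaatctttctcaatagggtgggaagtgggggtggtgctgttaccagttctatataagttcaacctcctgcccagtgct
Capitals mark the core of the metal response element (TGCACNC or TGCGCNC, to which MTF1 binds), a STAT motif (TTCNNNGAA) and a C/EBP motif (TTGCNNAA), searched on both strands. Within its window, Mt1 had 1 core, from 23 to 17 bases before the RefSeq start. Mt2 had 3, whose first bases lie 223, 128 and 50 bases before its RefSeq start, and a C/EBP match 12 bases before it. These starts differ from the gene positions above. The Mt2 window ends at 94172617 and the Mt2 gene begins at 94172664, while the Mt1 window ends at 94179088, past the gene start of 94179082. Bases beyond the windows were not searched, so the counts hold for these windows alone. Among 32851 promoter windows of this length, 21.4% held at least 1 core and 1.26% held 3 or more. Itih4 had a STAT match 51 bases before its start (7.0% of windows), and Hpx a C/EBP match 200 bases before its start (9.6% of windows). A match is a stretch of letters and not a measured binding site.

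The second question was whether the genes differed between pups that died and pups that lived. In liver-content libraries, Saa3, Orm1, Mt1 and Mt2 had higher medians in dead pups and Hp, Hpx and Itih4 lower medians, but no member passed the test in either content. Mt1 was 1095, 1768, 1879 and 832 CPM in dead heterozygous NAC, dead heterozygous placebo and the dead null NAC libraries labelled lung and liver, and 1378, 533, 770 and 706 CPM in live WT NAC, live heterozygous NAC, live WT placebo and live heterozygous placebo libraries. The 4 dead libraries exceeded 3 of the 4 live ones, and the live WT NAC library lay among the dead. The log2 fold change was 0.72 ± 0.37 (adjusted p = 0.805, edgeR). Mt2 was 801, 1123, 1242 and 422 CPM in the same dead libraries and 1212, 331, 468 and 355 CPM in the live ones, with the same live WT NAC library high and the dead null NAC library labelled liver low. Its log2 fold change was 0.59 ± 0.49 (adjusted p = 0.812, edgeR).

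Among the other members in liver-content libraries, Orm1 was 11.1, 6.44, 7.92 and 1.67 CPM in dead pups and 5.64, 2.75, 3.26 and 1.78 CPM in live pups, in the order of libraries above. It was highest in the 3 dead libraries other than the dead null NAC library labelled liver, which was the lowest of all 8. The log2 fold change was 0.94 ± 0.56 (adjusted p = 0.805, edgeR). Saa3 was 4.86, 3.58, 10.5 and 0.477 CPM in dead and 2.87, 3.48, 1.67 and 1.71 CPM in live pups, with the same dead null library lowest (0.85 ± 0.70, adjusted p = 0.812, edgeR). The abundant plasma protein genes moved less. Their log2 fold changes in dead over live pups were -0.07 ± 0.19 for Hp, -0.31 ± 0.32 for Hpx and -0.19 ± 0.23 for Itih4, with adjusted p-values of 0.939, 0.835 and 0.852 (edgeR).

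The 2 dead null NAC libraries in the liver-content set differed widely from each other. The library labelled lung had 22.01 times the Saa3 CPM of the one labelled liver (106 against 6 counts), 4.75 times the Orm1, 2.94 times the Mt2, 2.26 times the Mt1 and 1.66 times the Itih4, with 2.35 times the Alb. Hp and Hpx were lower in it, at 0.902 and 0.700 times. Without the library labelled liver, the log2 fold change of Mt1 in dead over live pups was 0.89 ± 0.34 and that of Mt2 0.84 ± 0.43, and neither was called (adjusted p = 0.197 and 0.293, edgeR). Over the omission of each of the 8 libraries in turn, the value of Mt1 ranged from 0.41 (without dead heterozygous placebo) to 1.25 (without live WT NAC) and that of Mt2 from 0.0907 to 1.38 (without the same libraries), and neither was called in any of them.

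Mt2 overlapped between dead and live pups in lung-content libraries. It was 75.8, 17.4 and 34.0 CPM in the dead heterozygous NAC, dead heterozygous placebo and dead null placebo libraries and 18.5, 19.2, 15.8 and 14.6 CPM in the live WT NAC, live heterozygous NAC, live WT placebo and live heterozygous placebo libraries. Within each treatment every dead library exceeded every live one, and how many of all genes did so was not counted. The log2 fold change was 1.28 ± 0.29, with an unadjusted p of 0.00174 and an adjusted p of 0.999 (edgeR), and DESeq2 called it at 1.28 (adjusted p = 0.0282). Mt1 was 125, 28.1 and 61.0 CPM in dead and 48.95, 57.2, 31.1 and 32.4 CPM in live pups, with the dead heterozygous placebo library the lowest of the 7 (0.80 ± 0.26, adjusted p = 0.999, edgeR).

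Saa3 in lung-content libraries was 3.19, 17.0 and 6.24 CPM in dead and 7.28, 2.79, 2.60 and 1.73 CPM in live pups, the dead heterozygous placebo library standing highest at 200 counts (1.33 ± 0.71). Orm1 was 1.12, 2.20 and 1.78 CPM in dead and 1.15, 1.39, 0.530 and 0.347 CPM in live pups (1.21 ± 0.53), from 4 to 26 counts per library. Hp was level, at 301, 256 and 254 CPM in dead and 304, 323, 264 and 237 CPM in live pups (-0.01 ± 0.13). Hpx (-0.88 ± 0.55) and Itih4 (0.29 ± 0.24) were low in this content throughout, and these 5 members had an adjusted p of 0.999 each (edgeR). Dead were also set against live heterozygous pups, in a fit of pup group and treatment over all libraries of a content. The log2 fold changes in liver-content libraries were 1.20 ± 0.52 for Mt1, 1.50 ± 0.63 for Mt2 and 1.93 ± 0.70 for Orm1. In lung-content libraries they were 0.54 ± 0.33, 1.23 ± 0.41 and 1.14 ± 0.75, none called (edgeR). Of the 7 tested members, 4 were above 0 in liver-content and 6 in lung-content libraries in this comparison. Of all genes tested, 48.4% and 51.6% were above 0.

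Across all genes, 0% were called between dead and live pups in either content by edgeR (0 of 13290 and 0 of 13659), with 678 and 490 genes at an unadjusted p under 0.05, and DESeq2 called 38 and 10. The 0 of 7 members called is therefore read against a background at which this test called nothing. The median log2 fold change of the 7 members was 0.59 in liver-content and 0.80 in lung-content libraries, against -0.0066 and -0.0017 over all genes tested. The markers of other cells are set beside these values. In lung-content libraries the 8 tested erythroid markers were all above 0 in dead over live pups (median log2 fold change 0.86, none called). Their list summed to 10355 to 12254 CPM in the 3 dead and 4756 to 8794 CPM in the 4 live libraries. These sums did not overlap, and how many genes or lists separated so in lung-content libraries was not counted. Of 9 tested hepatocyte markers 1 was above 0 there (median -1.13, none called), with sums of 35.3 to 79.4 CPM in dead and 19.4 to 182 CPM in live pups. In liver-content libraries 8 of 9 erythroid markers were above 0 (median 0.22, none called), and their sums of 8663 to 42893 CPM in dead and 8485 to 47050 CPM in live pups overlapped. The part of these cells in the member values was not tested. The difference between the contents in the effect of death was also tested as an interaction, and 0% of 14078 genes and 0 of 7 members were called by edgeR (544 genes at an unadjusted p under 0.05, and 4 genes but no member called by DESeq2). The interaction of Mt2 was -0.71 ± 0.65 and that of Mt1 -0.11 ± 0.58 (log2, liver-content minus lung-content).

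**Figure D3:**
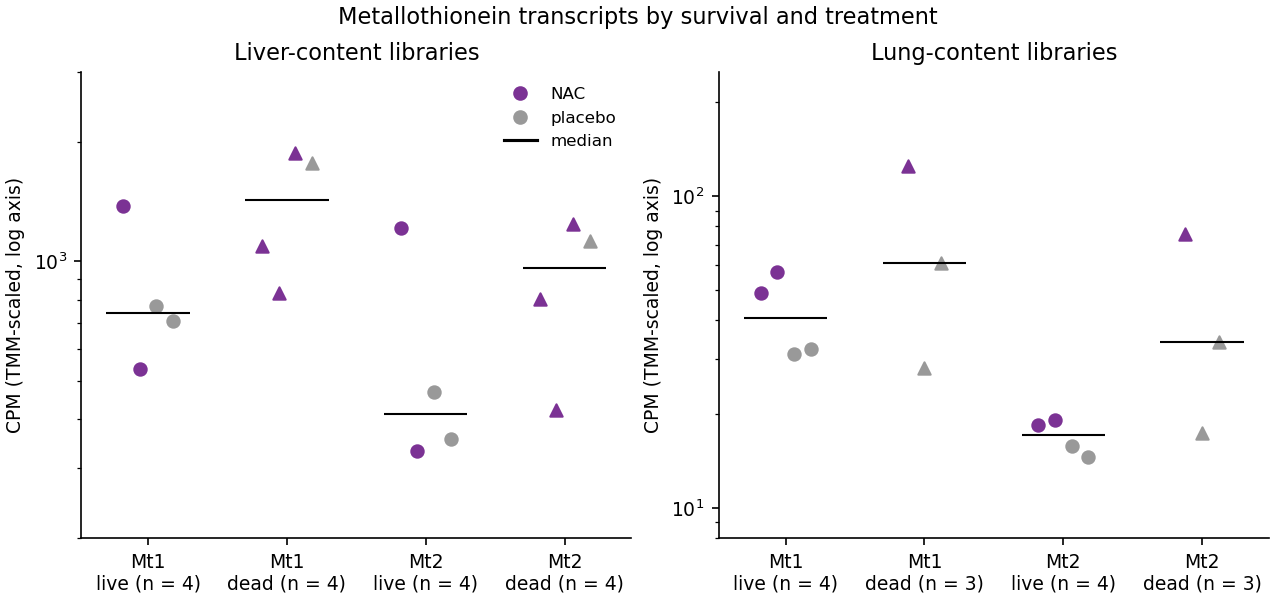
CPM of Mt1 and Mt2 (log axis, scaled apart in the 2 panels) in liver-content libraries (left) and lung-content libraries (right), by survival, with NAC in purple, placebo in grey and a bar at the median. In liver-content libraries the live WT NAC library lies among the dead ones, and in lung-content libraries the dead heterozygous NAC library is highest for both genes.

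NAC was next compared with placebo. In lung-content libraries, Mt1 was the only member called, at a log2 fold change of 1.05 ± 0.26 (adjusted p = 0.0351, edgeR), a 2.08-fold rise. Mt1 was 48.95, 57.2 and 125 CPM with NAC in live WT, live heterozygous and dead heterozygous pups, and 31.1, 32.4, 28.1 and 61.0 CPM with placebo in the same groups and in dead null pups. Each NAC library exceeded the placebo library of its pup group, by 1.57, 1.76 and 4.45-fold, and only the dead null placebo library, which has no NAC partner in this content, overlapped the NAC range. Against 1 of 7 members, 5.11% of all 13659 genes were called, and 2.52% were called higher with NAC. In this comparison 4765 of the 13659 genes were at an unadjusted p under 0.05 (edgeR).

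The call of Mt1 rested on each lung-content library other than that of dead null placebo pups. It was lost (adjusted p from 0.0568 to 0.130, edgeR) without any 1 of the live WT NAC, live heterozygous NAC, dead heterozygous NAC, live WT placebo, live heterozygous placebo or dead heterozygous placebo libraries, while the log2 fold change stayed between 0.74 and 1.21 over all 7 omissions. Library size alone as the scaling, under which the median of all genes was -0.24, gave 0.86 (adjusted p = 0.0605, edgeR). With pup group as a block, Mt1 was still called and 1383 genes in all were called in place of 698.

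Mt2 followed Mt1 in direction, at 18.5, 19.2 and 75.8 CPM with NAC and 15.8, 14.6, 17.4 and 34.0 CPM with placebo. The NAC library was higher in each pair, by 1.17, 1.32 and 4.36-fold, but the log2 fold change of 0.86 ± 0.29 did not pass (adjusted p = 0.0784, edgeR). Itih4 went the other way, at 3.38, 3.62 and 5.94 CPM with NAC and 7.73, 8.76, 9.41 and 7.01 CPM with placebo, so the NAC and placebo libraries did not overlap. Its log2 fold change of -0.91 ± 0.25 passed in adjusted p (0.0440, edgeR) and missed the fold of 1. With pup group as a block it was called at -1.03 (adjusted p = 0.0206, edgeR). Hp was 304, 323 and 301 CPM with NAC and 264, 237, 256 and 254 CPM with placebo, again without overlap, at a log2 fold change of 0.29 ± 0.13 (adjusted p = 0.158, edgeR). How many of all genes separated NAC from placebo libraries in this way was not counted. Hpx (-0.84 ± 0.55), Orm1 (0.45 ± 0.54) and Saa3 (0.07 ± 0.71) did not pass, and Saa3 went from 17.0 CPM with placebo to 3.19 CPM with NAC in dead heterozygous pups while it was higher with NAC in both live groups.

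In liver-content libraries no member was called for NAC, and 0% of 13290 genes were called by edgeR (273 at an unadjusted p under 0.05, and 1 gene called by DESeq2). Mt1 had a log2 fold change of -0.01 ± 0.38 and Mt2 of 0.28 ± 0.51. Their pairs disagreed, since Mt1 with NAC was 1.79 times placebo in live WT pups, 0.755 times in live heterozygous pups and 0.619 times in dead heterozygous pups. Saa3 (1.72, 2.04 and 1.36 times) and Orm1 (1.73, 1.54 and 1.72 times) were higher with NAC in each of these pairs, at 21 to 58 counts for Saa3 and 23 to 132 for Orm1, and Hpx was lower in each (0.502, 0.800 and 0.732 times). Their log2 fold changes over all 8 libraries were 0.75 ± 0.74, 0.44 ± 0.58 and -0.31 ± 0.32, with adjusted p of 1.00 each (edgeR). Hp (-0.19 ± 0.19) and Itih4 (0.14 ± 0.24) did not pass either.

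Whether the response to NAC differed between the contents was tested as an interaction, a test added after the values were seen. No member and 0% of 14078 genes were called by edgeR (1900 at an unadjusted p under 0.05), and DESeq2 called 165 genes, none of them a member. The difference (log2, liver-content minus lung-content) was -1.06 ± 0.51 for Mt1 (adjusted p = 0.381), 1.01 ± 0.36 for Itih4 (adjusted p = 0.282) and -0.48 ± 0.27 for Hp (adjusted p = 0.444, edgeR). The call of Mt1 in lung-content libraries is thus not shown to be particular to that content.

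**Figure D4:**
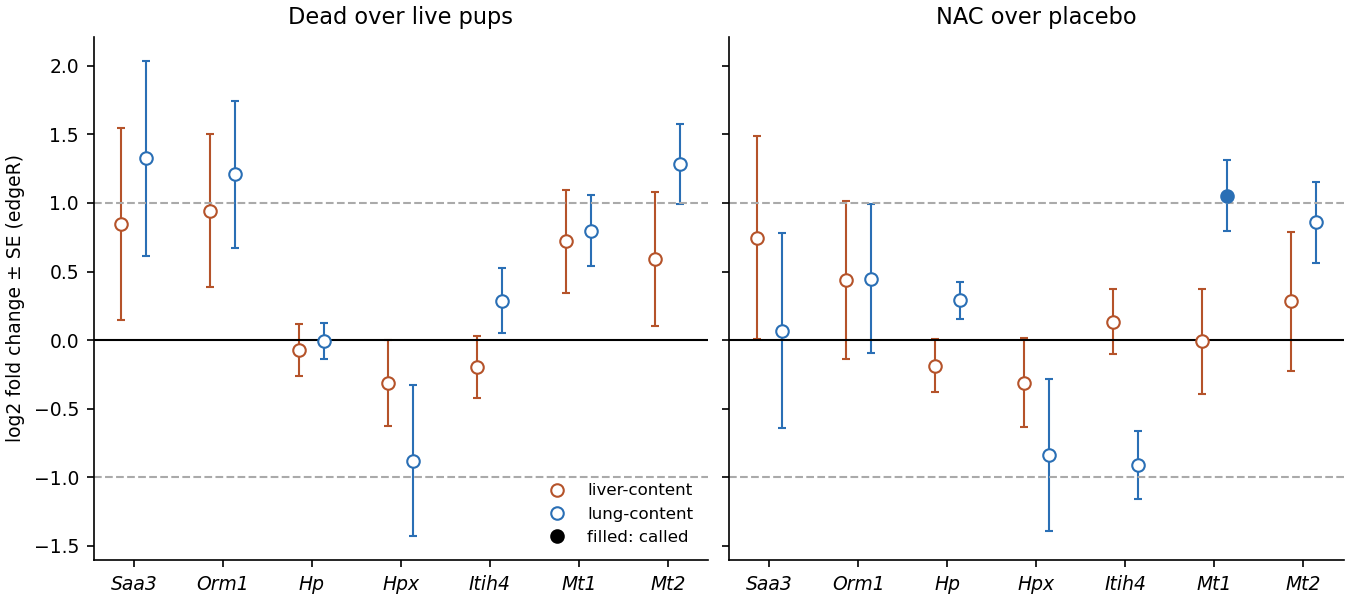
Log2 fold change ± SE (edgeR) of the 7 tested members for dead over live pups (left) and NAC over placebo (right), in liver-content and lung-content libraries, with dashed lines at the fold required for a call and filled points for calls. The only filled point is Mt1 with NAC in lung-content libraries at 1.05.

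**Figure D5:**
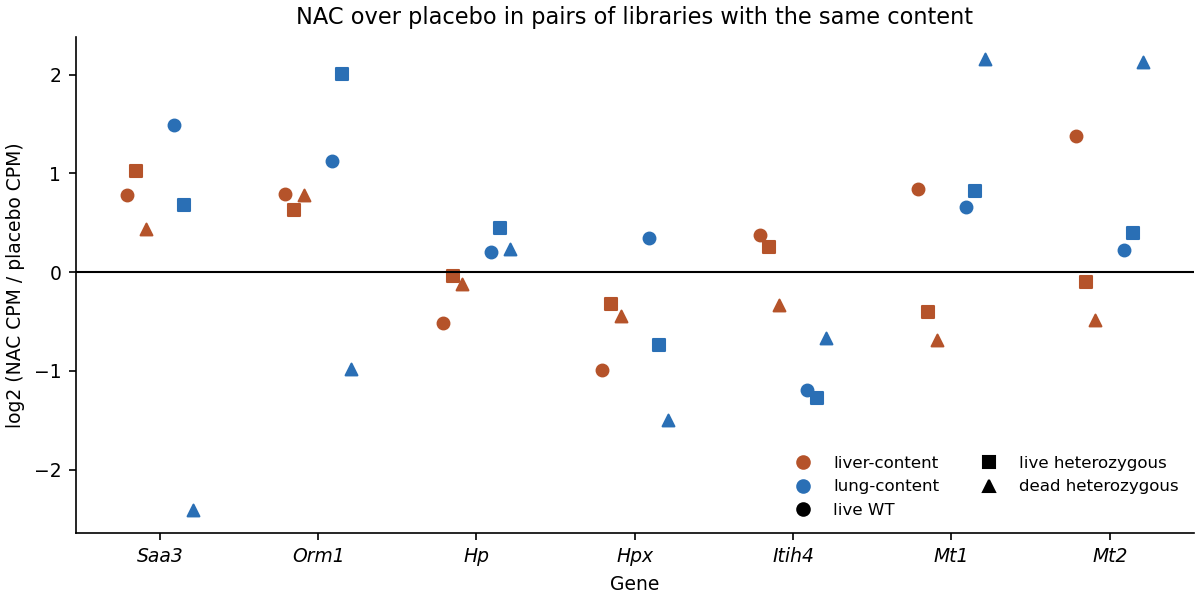
Log2 ratio of NAC to placebo CPM for the 7 tested members in the 3 pup groups that had both treatments within a content, with colour for content and symbol for pup group. Mt1, Mt2 and Hp lie above 0 and Itih4 below 0 in all 3 lung-content pairs, and Hp and Hpx lie below 0 in all 3 liver-content pairs.

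Genes of the pathways that act on the members were listed by role, with earlier results of these data known. Of 24 genes of interleukin-6 and interleukin-1 signalling, 20 were tested in each content. None was called for death in either content or for NAC in liver-content libraries, and 2 were called higher with NAC in lung-content libraries, where 2.52% of all genes were. These were Cebpd, a C/EBP factor induced in the acute phase (2.04 ± 0.32, adjusted p = 0.0190), and Nfkbia, the NF-kB inhibitor (1.10 ± 0.22, adjusted p = 0.0250, edgeR). Without the live WT placebo or the live heterozygous placebo library 0 of all genes were called in this comparison, so these calls ended. The ligand Il6 itself had at most 0.833 CPM in any library. The median log2 fold change of the list with NAC in lung-content libraries was 0.58, against -0.02 over all genes.

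Of 17 genes of metal handling and glucocorticoid response, 14 were tested in lung-content libraries and 5 were called higher with NAC, against 2.52% of all genes. All 5 are known as glucocorticoid-responsive genes, and all 5 calls ended without either of the live placebo libraries, when 0 genes in all were called. They were Fkbp5, a cochaperone of the glucocorticoid receptor (2.40 ± 0.52), Per1, a clock gene (2.52 ± 0.67), Tsc22d3, which encodes the anti-inflammatory protein GILZ (1.61 ± 0.33), the kinase Sgk1 (1.47 ± 0.22) and the phosphatase Dusp1 (1.65 ± 0.20). The dead null placebo library was the highest of these placebo libraries for Fkbp5, Per1 (243 CPM) and Tsc22d3 (248 CPM), but not for Sgk1 or Dusp1. Fkbp5 was 218, 235 and 250 CPM with NAC in live WT, live heterozygous and dead heterozygous pups and 38.3, 19.1, 36.4 and 148 CPM with placebo in these groups and in dead null pups. With placebo in the same order, Sgk1 was 91.8, 95.8, 179 and 96.9 CPM and Dusp1 105, 88.6, 129 and 119 CPM. The dead null placebo library also had the highest Mt1 and Mt2 among these placebo libraries, and whether its treatment label is right was not tested. The metal factor Mtf1 was level at 13.4 to 17.4 CPM, and the zinc exporter Slc30a1, another target of MTF1, was 43.6, 51.4 and 50.9 CPM with NAC and 34.7, 26.6, 28.7 and 24.4 CPM with placebo, without a call. Mt3 and Mt4, the metallothioneins of brain and stratified epithelia, were at or below 0.557 CPM and at 0 in these libraries.

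In the liver-content libraries, where none of these genes was called for NAC or for death, Per1 and Zbtb16, both glucocorticoid-responsive, were high where Mt1 was high. Per1 was 443, 181 and 161 CPM in the dead null NAC library labelled lung, the dead heterozygous placebo library and the live WT NAC library, which had the 3 highest Mt1 levels, and 15.2 to 81.2 CPM in the other 5. Zbtb16 was 69.6, 51.8 and 36.5 CPM in these 3 and 4.58 to 20.5 CPM in the others. Over the 8 libraries, Pearson's r of log2(CPM + 1) with Mt1 was 0.96 for Mt2, 0.93 for Zbtb16, 0.92 for Tsc22d3 and 0.91 for Per1. It was lower for Sgk1 (0.83), Dusp1 (0.71), Slc30a1 (0.59), Mtf1 (0.59) and Fkbp5 (0.31), and -0.70 for both Hp and Hpx. How many of the 9340 genes considered reached the r of Per1 or Zbtb16 was not counted. The 5 genes of at least 10 CPM with the highest r were Ddit3 (0.99), Josd1, Chmp1b, Eif4a2 and Btg1 (0.97). These points share libraries, scaling and differences in survival and treatment, and r is given as a description. For Saa3 over the 7 lung-content libraries the nearest genes were Fam188a (0.98), Epb4.1l4a, Hace1, Tgds and Sfxn1 (0.90). The same measure for Saa1 over the liver-content libraries, led by Tmem167b (0.97), rests on 2 to 6 counts of Saa1.

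Other acute-phase plasma proteins gave the wider context. Of 20 such genes, 19 were tested in liver-content and 14 in lung-content libraries, and none was called for death or NAC in either. Their median log2 fold change in dead over live pups was 0.10 in liver-content libraries, and that of 7 negative acute-phase genes, among them Alb and Ttr, was -0.12. The fibrinogen chain gene Fgb ranged from 4159 to 13637 CPM and Lcn2, which encodes the iron-binding lipocalin of neutrophils and epithelia, from 144 to 435 CPM in liver-content libraries. In lung-content libraries Lcn2 was 134, 71.4 and 88.2 CPM in dead and 55.1, 47.6, 37.9 and 29.5 CPM in live pups, without overlap (1.30 ± 0.15, adjusted p = 0.151, edgeR). The share of all genes without such overlap was not counted.

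Markers of other cells also moved with treatment in the lung-content libraries. Of 9 tested neutrophil markers, 4 were called higher with NAC (Mpo, Mmp8, Retnlg and Ngp), as was 1 of 8 erythroid markers (Slc4a1), while none of 8 macrophage markers was called and the lung epithelium marker Cldn18 was called lower. Of all genes 2.52% were called higher, and these marker calls also ended without the live WT placebo or the live heterozygous placebo library. The summed neutrophil markers were 216, 271 and 286 CPM with NAC in live WT, live heterozygous and dead heterozygous pups and 115, 154, 155 and 144 CPM with placebo in these groups and in dead null pups. Their part in the values of Hp, Lcn2 and the metallothioneins was not tested. Since whole organs were sequenced, fewer cells of a type and less RNA per cell cannot be told apart.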

How the data were processed

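RNA of 16 pooled libraries of newborn mouse lung and liver was sequenced from TruSeq stranded mRNA libraries. The authors aligned the reads to GRCm38 with the Omicsoft Sequence Aligner and deposited expected counts per gene symbol (estimated counts, not normalized), which were rounded to whole numbers here. The annotation release and the use of strand are not given in the sources used here. Read length is 100 bp in the study's methods and 150 bp in the labels. The submitters' processing notes name R 4.0.3, edgeR 3.30.3 and mm10.

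Of 25054 entries, 5613 were 0 in every library, and 329 symbols on 962 entries were kept apart. Depth was 7236865 to 16107749 counts per library. Tissue labels went against marker genes, so libraries were classed by content (Sftpc of at least 1000 CPM with Alb under 1000 CPM, or Alb of at least 50000 CPM). The design named counts, and estimated counts were found.

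Genes whose mean was 1 CPM or more were tested with edgeR 4.0.16 (R 4.3.3), TMM factors over the 16 libraries, models of survival, treatment and content, Benjamini-Hochberg adjustment over all genes tested and an absolute log2 fold change of at least 1. SE is the log2 fold change divided by the square root of F. Alternatives were other scalings, filters, DESeq2 1.42.0, summed symbols, pup group as a block and leaving out each library. The difference of NAC against placebo between contents was added after seeing the data. The edgeR test with TMM scaling was run on simulated counts for the main comparisons, and the other steps were not tested in this way. Each library is a pool of several experiments, and p-values measure only the spread between pools. Named genes are the members, listed genes that were called or are described by role, and the 5 genes most correlated with Mt1, Saa1 and Saa3. The Mt1 neighbours were sought over liver-content libraries. The members and lists were chosen with earlier results of these data known. Positions are from GENCODE on GRCm38 and promoters from RefSeq. Counting intervals were not computed because values are compared over libraries, and a count of 3 was the floor.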

Additional observations from a re-analysis of the deposited data

Results flagged for a closer look

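Hp was unusually low in 1 live library. Among the 4 live liver-content libraries, that of WT pups with NAC had 2921 CPM, while the other three had 4092 to 4212 CPM, and the gap to the nearest was 0.921 of the whole range. This was the only such case among 35 groups examined, of which chance alone flags about 1 in 20. The same library had the highest Mt1 and Mt2 of the live liver-content libraries.

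The pairs of NAC and placebo libraries moved Hp in opposite directions in the 2 contents. With NAC, Hp was higher in all 3 lung-content pairs (log2 ratios of 0.20, 0.44 and 0.24) and lower in all 3 liver-content pairs (-0.52, -0.04 and -0.12). The test of this difference gave -0.48 ± 0.27 on the log2 scale, liver-content minus lung-content, and did not pass (adjusted p = 0.444, edgeR's quasi-likelihood test over 14078 genes). None of the 6 other tested members had pairs that all moved one way in one content and all the other way in the other.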

How the results depend on the processing

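No member was called for death, or for NAC in liver-content libraries, under any setting run except Mt2 with DESeq2 in lung-content libraries, which made 1 member called. The contents kept 6 members called when each library was left out in turn, 7 with library size alone (Saa3 added, lower in liver-content) or with no filter (Saa1 added, from 0 to 6 counts), and 5 of the 5 tested with a mean of at least 10 CPM. For NAC in lung-content libraries the members called were 0 with library size alone, 2 with pup group as a block and 0 to 2 over the left-out libraries. Without the dead heterozygous NAC library the 1 member called was Itih4 and not Mt1, and without the dead null placebo library Mt1 and Itih4 were both called.

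The number of all genes called was less stable. For NAC in lung-content libraries it was 698, with 1383 under the pup group block, 402 at a mean of at least 10 CPM and 0 to 1420 over the left-out libraries (0 without the live WT placebo or the live heterozygous placebo library, 1 without live heterozygous NAC, 35 without dead heterozygous placebo, 1185 without dead heterozygous NAC and 1420 without dead null placebo). For death it was 1 with no filter and 38 (liver-content) or 10 (lung-content) with DESeq2, and leaving out libraries gave 0 to 10 in liver-content, where 10 were called without the dead null NAC library labelled liver. DESeq2 called 1 gene for NAC in liver-content, 4 for the interaction of death and content (0 to 1 over left-out libraries) and 165 for that of NAC and content (0 to 91, with 15 without dead heterozygous NAC and 91 without dead null placebo). The contents differed in 4518 genes at a mean of at least 10 CPM, in place of 7057. Library size alone changed the split for NAC in lung-content libraries to 209 higher and 468 lower, from 344 and 354, and for the contents to 2292 higher and 5307 lower, from 3716 and 3341.

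The signs of several uncalled values close to 0 changed. Hp in dead over live pups became 0.0081 in liver-content libraries scaled to hepatocyte markers. It became 0.0031 in lung-content libraries for dead against live heterozygous pups. Over the left-out libraries it ranged from -0.21 to 0.0473 in liver-content and from -0.0514 to 0.0255 in lung-content libraries. Mt1 with NAC in liver-content libraries became 0.0154 (relative log expression factors), 0.0036 (TMM over the fitted libraries), 0.0132 (DESeq2) and 0.18 (hepatocyte scaling), and ranged from -0.47 to 0.37 over the left-out libraries, and Mt2 from -0.39 to 0.91. Saa3 with NAC in lung-content libraries became -0.12 with library size alone and -0.14 with the block, and ranged from -0.84 to 1.23. Over the left-out libraries the interactions of death and content ranged from -0.80 to 0.12 for Orm1, -1.43 to 0.30 for Saa3, -0.61 to 0.47 for Mt1 and -0.25 to 0.0223 for Hp. Those of NAC and content ranged from -0.54 to 0.27 for Orm1 (-0.0309 with DESeq2), -0.0301 to 0.94 for Hpx and -1.21 to 0.0279 for Mt2. The causes were not tested. Pooled libraries, 7 or 8 to a content, limit what these tests can call, and Saa1, Saa2 and Orm2, with at most 6 counts in a library of either content, were tested only with no filter.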
